A study of Mus musculus with 18 samples.

Results

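The endosomal Toll-like receptors (TLRs) Tlr3, Tlr7, Tlr8, Tlr9 and Tlr13, their chaperone Unc93b1, and the proximal signalling proteins Myd88 and Irak4 were followed in mouse bone marrow-derived macrophages (BMDM). The 8 genes were taken by symbol from a table of 18668 gene symbols, and all 8 were found. All 8 were also among the 12838 genes that passed the filter on low values. Each passed in all 18 libraries, so that no gene entered through 1 group alone.

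BMDM were grown from marrow with M-CSF, came from mice on a C57BL6 background, and were left untreated or loaded with oxidized low-density lipoprotein (oxLDL), the modified lipid particle that turns lesional macrophages into foam cells. Cells of Apoe-/- mice were compared with cells of Apoe-/-/Treml4-/- double-knockout mice (DKO), and cells of both genotypes received vehicle only (untreated), 10 µg/ml oxLDL (oxLDL 10) or 60 µg/ml oxLDL (oxLDL 60). There were 6 groups, and 3 biological replicates in each. The deposited design gives 16 hours of oxLDL, the study's own text gives a longer time, and a treatment label mentions LPS, so that the exact exposure was not settled. All cells were Apoe-/-, Apoe encoding the lipoprotein ligand apolipoprotein E, and no cells with an intact Apoe gene were included. Deletion of Treml4, a receptor of myeloid cells, was germline in the DKO, so that the marrow precursors had lacked it too. Age and sex of the animals are not in the labels. Levels are in RPKM, which are read numbers divided by gene length and library size, and this allows genes to be set side by side. Changes were computed after adding 0.1 RPKM and taking log2, which understates those of low genes.

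Endosomal TLRs detect nucleic acids that reach the endosome of phagocytes. TLR3 binds double-stranded RNA and signals through the adaptor TRIF, TLR7 and TLR8 respond to breakdown products of single-stranded RNA, TLR9 to unmethylated CpG DNA, and TLR13, a receptor that mice have and humans lack, to bacterial ribosomal RNA. UNC93B1 carries these receptors from the endoplasmic reticulum to the endosome, and all of them except TLR3 recruit MyD88, which assembles with the kinase IRAK4. TREML4 is known as an amplifier of TLR7 signalling through MyD88, so that its loss could be examined here at the level of the transcripts of that pathway.

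In mm10 (GENCODE M21), Tlr7 lay at chrX:167304929-167330558 and Tlr8 beside it at chrX:167242696-167264329, both on the minus strand. Tlr13 lay elsewhere on the same chromosome, at chrX:106143204-106160493 on the plus strand. The autosomal receptors were Tlr3 at chr8:45395665-45411080 (minus strand) and Tlr9 at chr9:106222598-106226883 (plus strand). Unc93b1 lay at chr19:3935186-3949340 (plus strand), Myd88 at chr9:119335934-119341411 (minus strand) and Irak4 at chr15:94543643-94581815 (plus strand). Some of these loci overlap other annotated genes: Myd88 overlaps Acaa1a and Slc22a14, Irak4 overlaps Twf1, and Tlr3 overlaps the antisense gene Gm45542. The labels describe stranded libraries, but whether strand was used in counting is not given in the sources used here, so reads of these 3 genes may include some of their neighbours.

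Promoters of the 3 genes that stood for the opposite directions under oxLDL are shown, since Tlr3 and Myd88 fell and Tlr13 rose. The sequences are from RefSeq (GRCm38.p6) and run from 250 bases before to 50 bases after the start site, in the direction of transcription. Each stands for 1 start site only. Those of Tlr3 and Myd88 lie inside the loci given above, for which 9 and 3 transcripts are annotated. Both strands were searched for an interferon-stimulated response element (ISRE; TTTC, any 2 bases, TTTC), an NF-kB motif (GGGA, any base, TT, any base, CC) and a PU.1 motif (GAGGAA), and capitals mark each match.
Tlr3, chr8:45410331-45410630, minus strand: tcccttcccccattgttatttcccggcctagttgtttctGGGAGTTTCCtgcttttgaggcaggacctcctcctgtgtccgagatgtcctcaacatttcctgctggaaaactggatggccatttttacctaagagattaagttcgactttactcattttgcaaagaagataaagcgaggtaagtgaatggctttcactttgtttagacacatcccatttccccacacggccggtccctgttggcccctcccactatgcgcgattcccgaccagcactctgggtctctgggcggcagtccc
Myd88, chr9:119339969-119340268, minus strand: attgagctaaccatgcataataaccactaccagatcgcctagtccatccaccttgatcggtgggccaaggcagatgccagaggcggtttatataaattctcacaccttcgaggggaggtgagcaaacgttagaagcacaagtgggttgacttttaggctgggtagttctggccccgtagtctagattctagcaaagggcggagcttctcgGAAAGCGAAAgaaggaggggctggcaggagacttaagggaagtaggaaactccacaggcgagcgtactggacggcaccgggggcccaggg
Tlr13, chrX:106143025-106143324, plus strand: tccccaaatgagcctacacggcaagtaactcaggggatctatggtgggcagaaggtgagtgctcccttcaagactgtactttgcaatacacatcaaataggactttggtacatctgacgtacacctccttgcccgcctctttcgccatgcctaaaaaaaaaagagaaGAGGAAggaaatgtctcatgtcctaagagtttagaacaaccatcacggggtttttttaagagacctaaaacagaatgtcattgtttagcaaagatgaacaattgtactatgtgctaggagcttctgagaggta
The Tlr3 promoter held an NF-kB match that began at position -211 from the start site. The Myd88 promoter held an ISRE match on the opposite strand at position -40. The Tlr13 promoter held a PU.1 match at position -83. Of the other promoters read, that of Tlr8 held 1 PU.1 match, that of Tlr9 held 2, and that of Irak4 held no match to any of the 3 motifs. No promoter sequence was at hand for Tlr7 and Unc93b1, so these were not searched. Of 32851 mouse promoters of this length, 3.44% held the ISRE, 1.20% the NF-kB motif and 28.3% the PU.1 motif. No match shared bases with another.

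Libraries held an estimated 39.6 M to 54.0 M reads, read off the steps between low values. Treml4 stood at 1.86 to 8.39 RPKM in the 9 Apoe-/- libraries and at 0 to 0.012 RPKM in the 9 DKO libraries. Reads of Apoe remained in all 18 libraries and were higher in Apoe-/- (0.937 to 4.13 RPKM) than in DKO cells (0.349 to 1.39 RPKM), without overlap in untreated cells and with oxLDL 10 and with overlap with oxLDL 60. All 7 macrophage markers, among them Cd68, Adgre1 and Csf1r, were above 1 RPKM in some library, and their sum ran from 5458 to 11692 RPKM. Plasmacytoid dendritic cells and B cells carry much Tlr7 and Tlr9, and their markers were low. All 5 plasmacytoid dendritic cell markers stayed under 1 RPKM in every library, with a sum of at most 0.974 RPKM. Of 5 B cell markers, 4 stayed under 1 RPKM, the exception being Cd79b, and the sum was at most 2.42 RPKM. All 6 conventional dendritic cell markers and all 5 T and NK cell markers were under 1 RPKM throughout. Neutrophil markers summed to 25.1 to 41.8 RPKM in Apoe-/- and to 28.4 to 70.7 RPKM in DKO libraries. The part of such cells in differences between genotypes was not tested. Xist, expressed from the inactive X chromosome, was at 7.25 to 14.5 RPKM in 6 libraries, those of Apoe-/- replicate 2 and DKO replicate 3, whereas the highest value of the other 12 was 0.069 RPKM. The Y-linked Ddx3y, Eif2s3y, Kdm5d and Uty summed to 0 to 0.051 RPKM in those 6 and to 41.7 to 63.4 RPKM in the other 12. By these transcripts the 6 libraries came from female and the 12 from male animals.

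Untreated Apoe-/- macrophages carried the 8 transcripts at levels that spanned from 1.98 RPKM for Tlr9 to 138 RPKM for Unc93b1. Unc93b1 (138 ± 19.9 RPKM, SD, n = 3) was followed by Tlr13 (78.6 ± 5.88 RPKM), Tlr7 (40.4 ± 4.70 RPKM), Myd88 (34.2 ± 4.22 RPKM) and Tlr8 (26.2 ± 5.08 RPKM). Irak4 (10.9 ± 0.572 RPKM), Tlr3 (3.55 ± 0.796 RPKM) and Tlr9 (1.98 ± 0.507 RPKM) came last. Libraries of Tlr7 and Myd88 overlapped, as did those of Myd88 and Tlr8, and every other pair of neighbours in this order was apart. Untreated DKO cells gave the same order, from Unc93b1 at 136 ± 15.6 RPKM to Tlr9 at 1.84 ± 0.530 RPKM, and only Tlr7 and Myd88 overlapped there. By mean RPKM, Tlr13 was the most abundant of the 5 receptor transcripts in every group and Tlr9 the least, although Tlr9 and Tlr3 libraries overlapped in DKO cells given oxLDL 60. Tlr9 corresponded to about 152 to 371 reads per library and Tlr3 to about 279 to 842, against 12774 to 24215 reads for Tlr13.

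**Figure D1:**
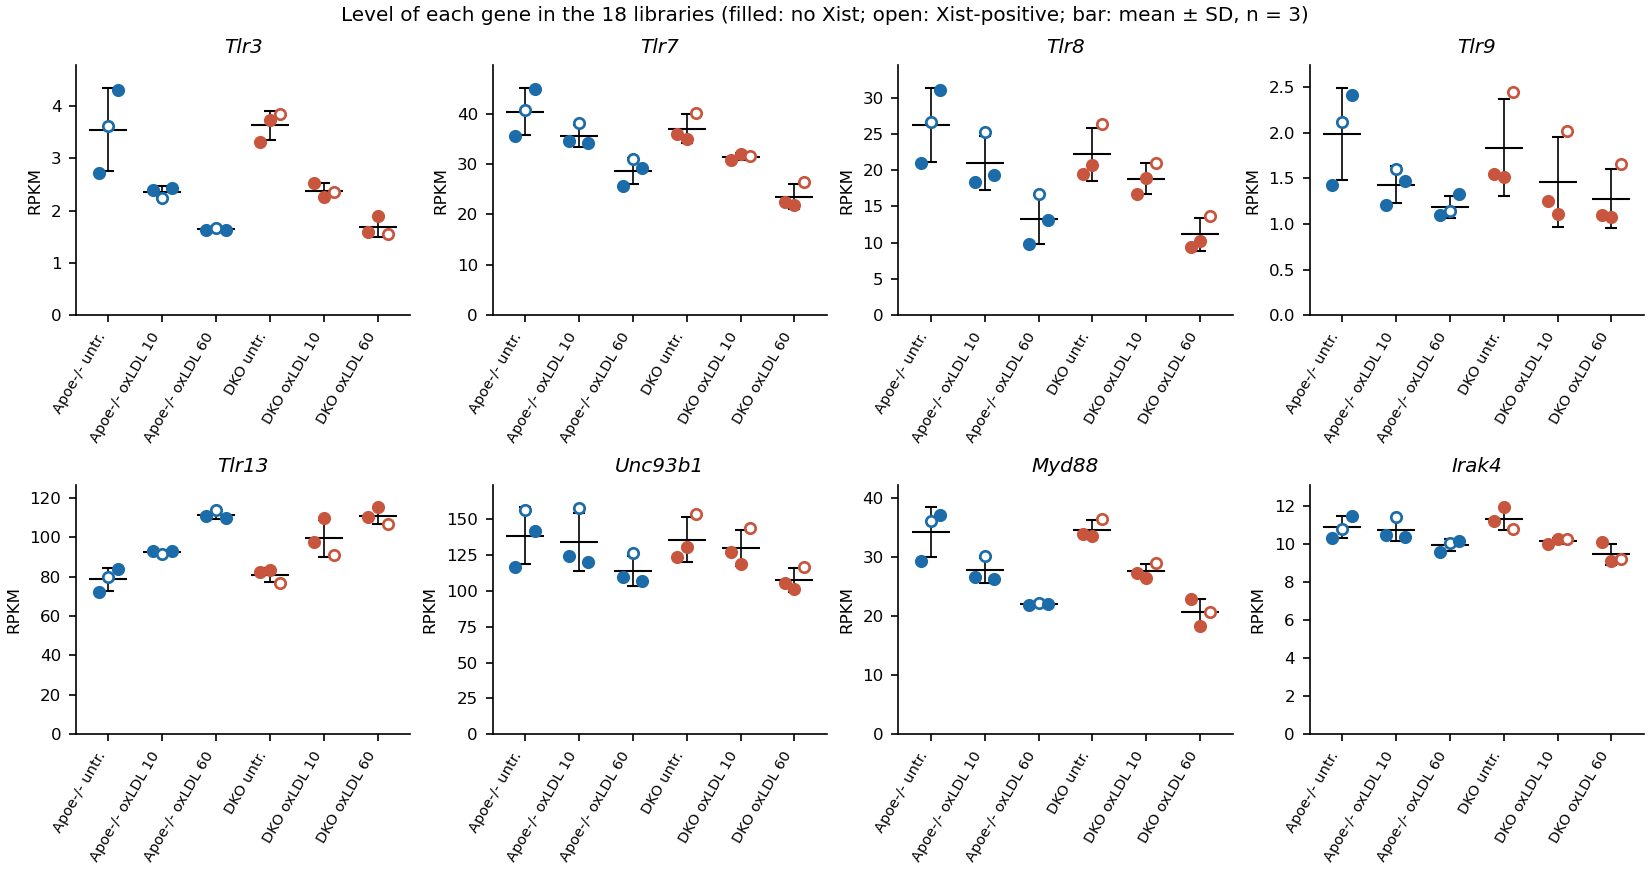
Level in RPKM (vertical axis, from 0) of each of the 8 genes in the 18 libraries, by group along the horizontal axis. Points are libraries, blue for Apoe-/- and red for DKO, open for the 6 Xist-positive libraries, and the horizontal bar with whiskers gives the mean ± SD of 3. Tlr3, Tlr7, Tlr8 and Myd88 step down with oxLDL in both genotypes, Tlr13 steps up, and Irak4 stays between 9.10 and 11.9 RPKM.

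The first question was how lipid loading changed these transcripts. In Apoe-/- cells given oxLDL 60, the transcripts of 4 receptors and of Myd88 fell and that of Tlr13 rose, so that 6 of the 8 genes passed the test, against 13.9% of all genes tested (7.13% higher and 6.78% lower). In DKO cells 4 of the 8 passed, all lower, namely Tlr3, Tlr7, Tlr8 and Myd88, against 12.2% of all genes (4.87% higher and 7.31% lower). Over the 8 genes the median log2 change was -0.56 in Apoe-/- and -0.57 in DKO cells, beside medians over all genes tested of 0.06 and -0.06. To pass, a gene needed a limma adjusted p under 0.05 together with a fold change of 1.4 or more, which is 0.49 on the log2 scale. The oxLDL 10 and oxLDL 60 comparisons use the same untreated libraries and are therefore not independent. Untreated and oxLDL 60 libraries did not overlap for 40.7% of all genes tested in Apoe-/- and 42.6% in DKO cells. With oxLDL 10 the shares were 20.5% and 18.9%. These shares count gaps in either direction, and gaps between libraries given below are read against them. In bulk RNA, fewer cells of a type and less RNA per cell cannot be told apart. The sum of the 7 macrophage markers was lower with oxLDL 60 as well, at 6423 to 8353 RPKM against 8614 to 11352 RPKM untreated in Apoe-/- cells, and at 5458 to 7042 RPKM against 8058 to 10530 RPKM in DKO cells. Lyz2 made up most of that sum (8554 ± 1234 RPKM untreated and 5621 ± 950.0 RPKM with oxLDL 60 in Apoe-/- cells), and the markers did not move as 1 list. Fcgr1 (-0.80 ± 0.17 and -0.90 ± 0.17 in Apoe-/- and DKO cells) and Lyz2 (-0.61 ± 0.19 and -0.71 ± 0.19) were called lower in both genotypes, as was Adgre1 (-0.50 ± 0.11) in Apoe-/- cells. Mertk was called higher (0.68 ± 0.20 and 0.70 ± 0.20), and Cd68 changed by 0.42 ± 0.09 and 0.29 ± 0.09, under the fold limit. The part of these markers in the changes of the 8 genes was not tested.

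Tlr3, the receptor for double-stranded RNA, fell in every oxLDL group. In Apoe-/- cells it stood at 2.73, 3.62 and 4.31 RPKM untreated, oxLDL 10 gave 2.40, 2.25 and 2.44 RPKM, and oxLDL 60 gave 1.63, 1.67 and 1.63 RPKM. In DKO cells it stood at 3.31, 3.74 and 3.85 RPKM untreated, oxLDL 10 gave 2.54, 2.26 and 2.36 RPKM, and oxLDL 60 gave 1.60, 1.91 and 1.55 RPKM. The 3 conditions did not overlap in either genotype, and the untreated Apoe-/- libraries were the most scattered. With oxLDL 60 the log2 change was -1.04 ± 0.13 (SE) in Apoe-/- cells (adjusted p = 6.8e-06) and -1.07 ± 0.13 in DKO cells (adjusted p = 6.1e-06). Tlr3 was also the 1 gene of the 8 that passed with oxLDL 10, at -0.55 ± 0.13 in Apoe-/- cells (adjusted p = 0.014) and -0.59 ± 0.13 in DKO cells (adjusted p = 0.011). Among all genes tested 2.79% and 2.26% passed there. The calls at oxLDL 10 were thin: without Apoe-/- untreated replicate 2 the adjusted p was 0.057, without replicate 3 the change shrank to -0.40, and in DKO cells the adjusted p was 0.065 without untreated replicate 3 and 0.063 without oxLDL 10 replicate 2.

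Tlr8 and Tlr7, the neighbouring genes for receptors of single-stranded RNA, both fell with oxLDL 60. Tlr8 stood at 20.9, 26.7 and 31.1 RPKM in untreated Apoe-/- cells, oxLDL 10 gave 18.4, 25.3 and 19.4 RPKM, and oxLDL 60 gave 9.83, 16.7 and 13.0 RPKM. In DKO cells the values were 19.4, 20.7 and 26.3 RPKM untreated, 16.7, 18.9 and 20.9 RPKM with oxLDL 10, and 9.46, 10.3 and 13.7 RPKM with oxLDL 60. At oxLDL 60 every library lay below every untreated library, while at oxLDL 10 the groups overlapped. The log2 change with oxLDL 60 was -1.00 ± 0.19 in Apoe-/- cells (adjusted p = 0.00078) and -0.99 ± 0.19 in DKO cells (adjusted p = 0.00096), and with oxLDL 10 it was -0.31 ± 0.19 and -0.23 ± 0.19 (adjusted p = 0.36 and 0.75).

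Tlr7 stood at 35.6, 40.6 and 45.0 RPKM in untreated Apoe-/- cells, oxLDL 10 gave 34.6, 38.1 and 34.2 RPKM, and oxLDL 60 gave 25.7, 30.9 and 29.2 RPKM. In DKO cells it stood at 36.0, 34.9 and 40.2 RPKM untreated, oxLDL 10 gave 30.7, 32.0 and 31.7 RPKM, and oxLDL 60 gave 22.4, 21.8 and 26.4 RPKM. Libraries given oxLDL 60 lay below all untreated ones in both genotypes, and those given oxLDL 10 did so in DKO cells. The log2 change with oxLDL 60 was -0.49 ± 0.09 in Apoe-/- cells (adjusted p = 0.00059), which barely passed the fold limit, and -0.65 ± 0.09 in DKO cells (adjusted p = 4.4e-05). Without Apoe-/- untreated replicate 3 the first change was -0.41, and without oxLDL 60 replicate 1 it was -0.42, both short of the fold limit, as was -0.48 with a pseudocount of 1. Over the 18 libraries Tlr7 and Tlr8 moved with a Pearson r of 0.96, a description that rests on libraries sharing groups and animals.

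Tlr9, the receptor for CpG DNA, had the lowest level of the 8 and the largest standard error in the fit. It stood at 1.42, 2.12 and 2.41 RPKM in untreated Apoe-/- cells and at 1.10, 1.14 and 1.33 RPKM with oxLDL 60, while oxLDL 10 gave 1.21, 1.60 and 1.48 RPKM. Untreated and oxLDL 60 libraries did not overlap, and the change was -0.67 ± 0.24 (adjusted p = 0.041). That call was lost when any library of those 6 was left out except untreated replicate 1, with adjusted p of 0.052 to 0.15, and also with no filter on low values (adjusted p = 0.084) or with a pseudocount of 1, where the change of -0.43 was under the fold limit. In DKO cells the values were 1.55, 1.51 and 2.45 RPKM untreated, 1.25, 1.11 and 2.02 RPKM for oxLDL 10, and 1.10, 1.08 and 1.65 RPKM for oxLDL 60. Replicate 3 was the highest in each DKO group, the untreated and oxLDL 60 libraries overlapped, and the change of -0.48 ± 0.24 did not pass (adjusted p = 0.15). That overlap is between animals. By replicate number, taken to mark an animal, oxLDL 60 over untreated was 0.710, 0.715 and 0.675 in DKO cells. In Apoe-/- cells this ratio was 0.773, 0.537 and 0.551.

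Tlr13, the receptor for bacterial ribosomal RNA, was the only one of the 8 genes whose estimate rose with oxLDL. In Apoe-/- cells it stood at 72.3, 79.8 and 83.9 RPKM untreated, oxLDL 10 gave 93.1, 91.5 and 93.1 RPKM, and oxLDL 60 gave 110, 114 and 110 RPKM. In DKO cells it stood at 82.1, 83.2 and 76.6 RPKM untreated, oxLDL 10 gave 97.4, 110 and 90.9 RPKM, and oxLDL 60 gave 110, 115 and 107 RPKM. In both genotypes every library given either amount of oxLDL lay above every untreated library. With oxLDL 10 such a gap upward was found for 1840 of 12838 genes in Apoe-/- and for 1286 in DKO cells. In either direction it was found for 20.5% and 18.9% of all genes. The log2 change with oxLDL 60 was 0.50 ± 0.07 in Apoe-/- cells (adjusted p = 2.3e-05) and 0.46 ± 0.07 in DKO cells (adjusted p = 7.0e-05), the second just under the fold limit. The 2 values straddled the limit, and rescaling each library by the median ratio put them at 0.44 and 0.52, on the other sides of it. Without Apoe-/- untreated replicate 1 the first value was 0.44. With oxLDL 10 the change was 0.24 ± 0.07 in Apoe-/- cells (adjusted p = 0.044) and 0.30 ± 0.07 in DKO cells (adjusted p = 0.017), both under the fold limit.

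**Figure D2:**
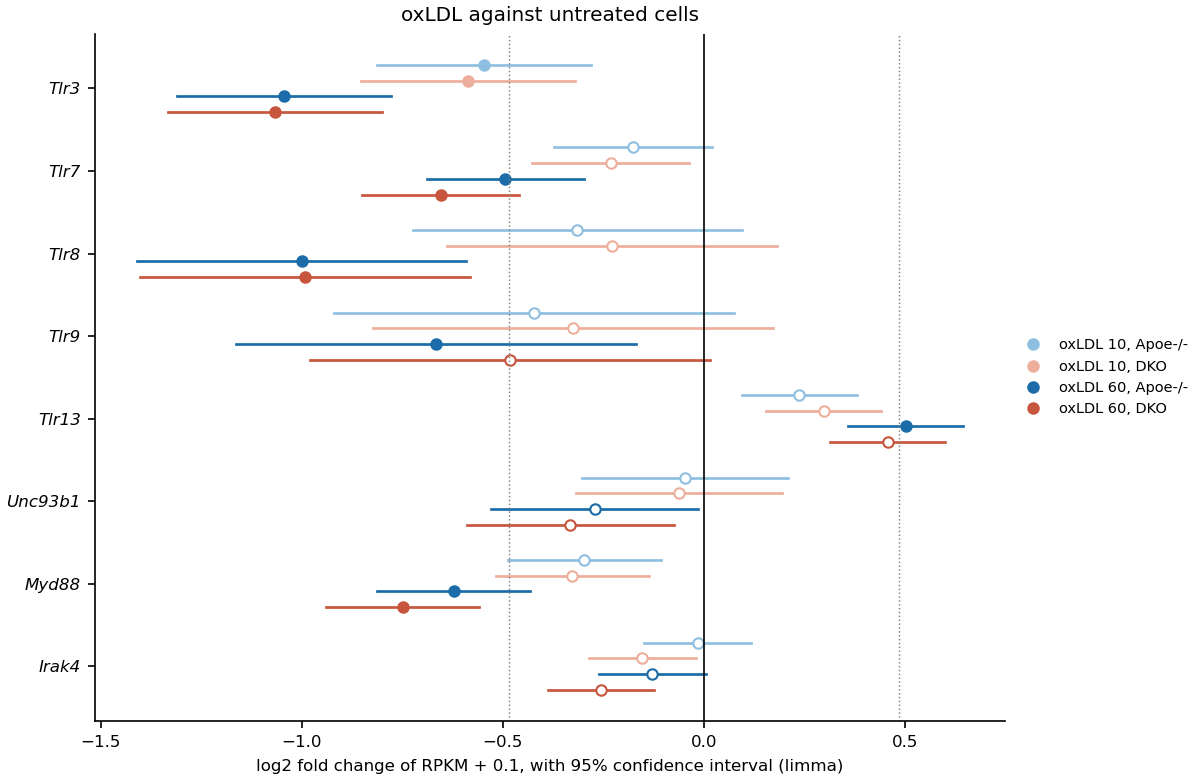
log2 fold change of RPKM + 0.1 against untreated cells (horizontal axis) for each gene, with its 95% confidence interval, for oxLDL 10 (pale) and oxLDL 60 (dark) in Apoe-/- (blue) and DKO (red) cells. Filled points passed both limits, and dotted lines mark a fold change of 1.4 in either direction. Tlr3 and Tlr8 lie furthest to the left with oxLDL 60, near -1 in both genotypes, and Tlr13 alone lies to the right of 0.

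Of the partner proteins, Myd88 fell and neither Unc93b1 nor Irak4 passed. Myd88, the adaptor shared by all of these receptors but TLR3, stood at 29.3, 36.0 and 37.1 RPKM in untreated Apoe-/- cells, oxLDL 10 gave 26.6, 30.2 and 26.2 RPKM, and oxLDL 60 gave 21.8, 22.2 and 22.0 RPKM. In DKO cells it stood at 33.9, 33.4 and 36.4 RPKM untreated, oxLDL 10 gave 27.2, 26.5 and 28.9 RPKM, and oxLDL 60 gave 22.9, 18.2 and 20.7 RPKM. Every oxLDL 60 library lay below every untreated library, and the 3 Apoe-/- libraries at oxLDL 60 had an SD of 0.179 RPKM. The log2 change with oxLDL 60 was -0.62 ± 0.09 in Apoe-/- cells (adjusted p = 4.8e-05) and -0.75 ± 0.09 in DKO cells (adjusted p = 7.3e-06). With oxLDL 10 it was -0.30 ± 0.09 and -0.33 ± 0.09 (adjusted p = 0.056 and 0.052).

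Unc93b1, the chaperone of the receptors, stood at 117, 156 and 142 RPKM in untreated Apoe-/- cells and at 109, 126 and 107 RPKM with oxLDL 60, and the groups overlapped. With oxLDL 10 it stood at 124, 157 and 120 RPKM. In DKO cells it stood at 123, 131 and 153 RPKM untreated and at 105, 101 and 117 RPKM with oxLDL 60, and these did not overlap. With oxLDL 10 it stood at 127, 119 and 144 RPKM. The change with oxLDL 60 was -0.27 ± 0.12 in Apoe-/- cells (adjusted p = 0.10) and -0.33 ± 0.12 in DKO cells (adjusted p = 0.054). Animal by animal, oxLDL 60 over untreated was 0.935, 0.806 and 0.753 in Apoe-/- cells. In DKO cells it was 0.852, 0.773 and 0.760, so that each animal had less with oxLDL 60. Irak4, the kinase that MyD88 recruits, lay between 9.10 and 11.9 RPKM in all 18 libraries. Its change with oxLDL 60 was -0.13 ± 0.06 in Apoe-/- cells (adjusted p = 0.14) and -0.26 ± 0.06 in DKO cells, where the adjusted p of 0.0058 came with a change under the fold limit. Untreated and oxLDL 60 libraries of Irak4 did not overlap in either genotype, which was also so for 40.7% of all genes tested in Apoe-/- cells and 42.6% in DKO cells.

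From oxLDL 10 to oxLDL 60, Tlr8 passed in both genotypes, at -0.69 ± 0.19 in Apoe-/- cells (adjusted p = 0.025) and -0.76 ± 0.19 in DKO cells (adjusted p = 0.013), and Tlr3 passed in Apoe-/- cells at -0.50 ± 0.13 (adjusted p = 0.013). Of all genes tested, 6.46% passed in Apoe-/- cells and 5.66% in DKO cells. Tlr3 in DKO cells changed by -0.48 ± 0.13 (adjusted p = 0.016), just under the fold limit, so the 2 genotypes were not shown to differ. Both Tlr8 calls and the Tlr3 call depended on single libraries. The Tlr8 call in Apoe-/- cells was lost without oxLDL 10 replicate 2 (adjusted p = 0.10), without oxLDL 60 replicate 1 (0.13) or without oxLDL 60 replicate 3 (0.065), and that in DKO cells without oxLDL 60 replicate 1 (0.060) or replicate 2 (0.052). The Tlr3 call was lost without Apoe-/- oxLDL 10 replicate 3 (adjusted p = 0.051).

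The receptor transcripts were also set against their sum. The summed RPKM of the 5 receptors was 151 ± 16.9 in untreated Apoe-/- cells, 153 ± 4.94 with oxLDL 10 and 156 ± 7.78 with oxLDL 60, and in DKO cells it was 145 ± 3.69, 153 ± 9.09 and 148 ± 3.20. Within that sum Tlr13 made up 52.3% ± 2.02 of untreated Apoe-/- cells, 60.6% ± 2.54 with oxLDL 10 and 71.4% ± 2.57 with oxLDL 60. In DKO cells its share was 55.6% ± 3.73, 64.6% ± 2.83 and 74.6% ± 3.02. Tlr7 went from 26.8% ± 0.200 to 18.3% ± 0.914 in Apoe-/- cells and from 25.5% ± 1.34 to 15.9% ± 1.56 in DKO cells between untreated and oxLDL 60. Tlr8 went from 17.3% ± 1.46 to 8.41% ± 1.79 and from 15.2% ± 2.12 to 7.50% ± 1.42. Tlr3 and Tlr9 together never exceeded a few percent of the sum. The ratio of Unc93b1 to the summed receptors was 0.917 ± 0.0918 in untreated Apoe-/- cells and 0.731 ± 0.0391 with oxLDL 60, and 0.933 ± 0.0828 and 0.725 ± 0.0522 in DKO cells. These shares are descriptions of the same RPKM values and were not tested.

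**Figure D3:**
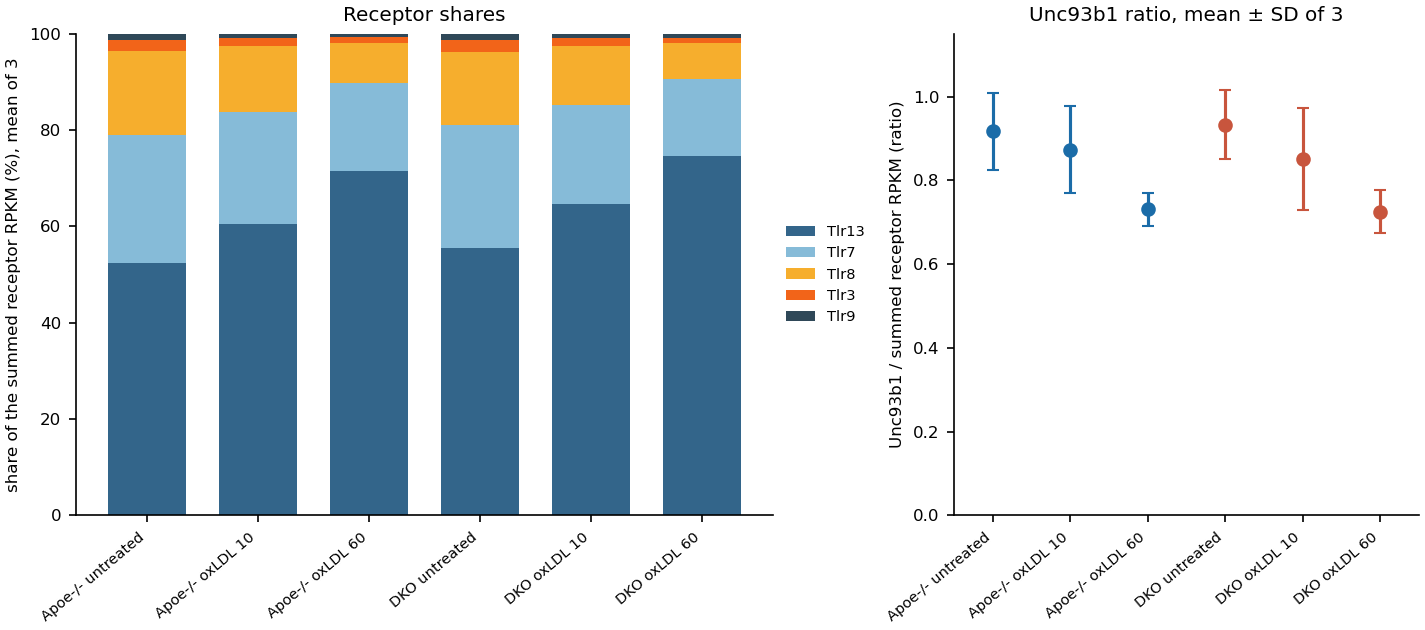
Left, mean share (%) of each receptor in the summed RPKM of the 5 endosomal TLRs, by group. Right, ratio of Unc93b1 RPKM to that sum, mean ± SD of 3 libraries, blue for Apoe-/- and red for DKO. The Tlr13 share rises from 52.3% to 71.4% in Apoe-/- and from 55.6% to 74.6% in DKO cells, and the Unc93b1 ratio is lowest with oxLDL 60.

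The second question was whether loss of Treml4 changed these transcripts. None of the 8 genes passed the test between genotypes in untreated cells (0.21% of all genes did), with oxLDL 10 (0.0857%), with oxLDL 60 (0.125%), or over the means of the 3 libraries of each animal (0.0935%). At an unadjusted limma p under 0.05 the count was 0 of 8 in untreated cells, 0 with oxLDL 10, and 1 each with oxLDL 60 and over animal means, which was Tlr7 both times. Among all genes 2225, 1252, 1011 and 1333 were under that p. With oxLDL 60, Tlr7 stood at 22.4, 21.8 and 26.4 RPKM in DKO and at 25.7, 30.9 and 29.2 RPKM in Apoe-/- cells, and the groups overlapped. The log2 difference, DKO minus Apoe-/-, was -0.28 ± 0.09 (95% confidence interval -0.48 to -0.09, adjusted p = 0.50). It was -0.12 ± 0.09 in untreated cells (-0.21 without Apoe-/- replicate 1 and -0.04 without Apoe-/- replicate 3) and -0.18 ± 0.09 with oxLDL 10, and over animal means it was -0.19 (95% interval -0.35 to -0.04, adjusted p = 0.46). The median difference of all genes was 0.09 in untreated cells, -0.01 after rescaling by the median ratio, and -0.02 with oxLDL 60. Over 16 alternatives the Tlr7 difference ran from -0.22 to -0.04 untreated and from -0.37 to -0.22 with oxLDL 60. With oxLDL 10 all 3 DKO libraries of Tlr7 lay below the Apoe-/- libraries, as did those of Irak4. Of 12838 genes tested, 401 lay below in this way and 1153 lay above, 12.1% in either direction.

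Intervals for the other genes bounded how large a difference these libraries could have missed. With oxLDL 60 the 95% interval of the log2 difference ran from -0.15 to 0.13 for Tlr13, from -0.20 to 0.06 for Irak4, from -0.29 to 0.09 for Myd88, from -0.24 to 0.30 for Tlr3 and from -0.34 to 0.17 for Unc93b1. It was wider for Tlr8, from -0.64 to 0.18, and for Tlr9, from -0.42 to 0.57. A fold change of 1.4 thus lay outside the interval for Tlr13, Irak4, Myd88, Tlr3 and Unc93b1, also under each of the 16 alternatives, and inside it for Tlr8 and Tlr9. For Tlr7 it lay just outside, and the interval held it in 5 of the 16 alternatives, with a lower end down to -0.57. These were only the groups compared, no Xist-positive libraries, and leaving out Apoe-/- replicate 1, Apoe-/- replicate 3 or DKO replicate 3. Tlr8 was lower in DKO in each estimate, by -0.24 ± 0.19 untreated and -0.23 ± 0.19 with oxLDL 60, neither larger than the spread between libraries. Single libraries moved both values. The untreated one was -0.39 without Apoe-/- replicate 1 and -0.11 without Apoe-/- replicate 3, and the one with oxLDL 60 was -0.42 without Apoe-/- replicate 1 and -0.04 without Apoe-/- replicate 2.

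**Figure D4:**
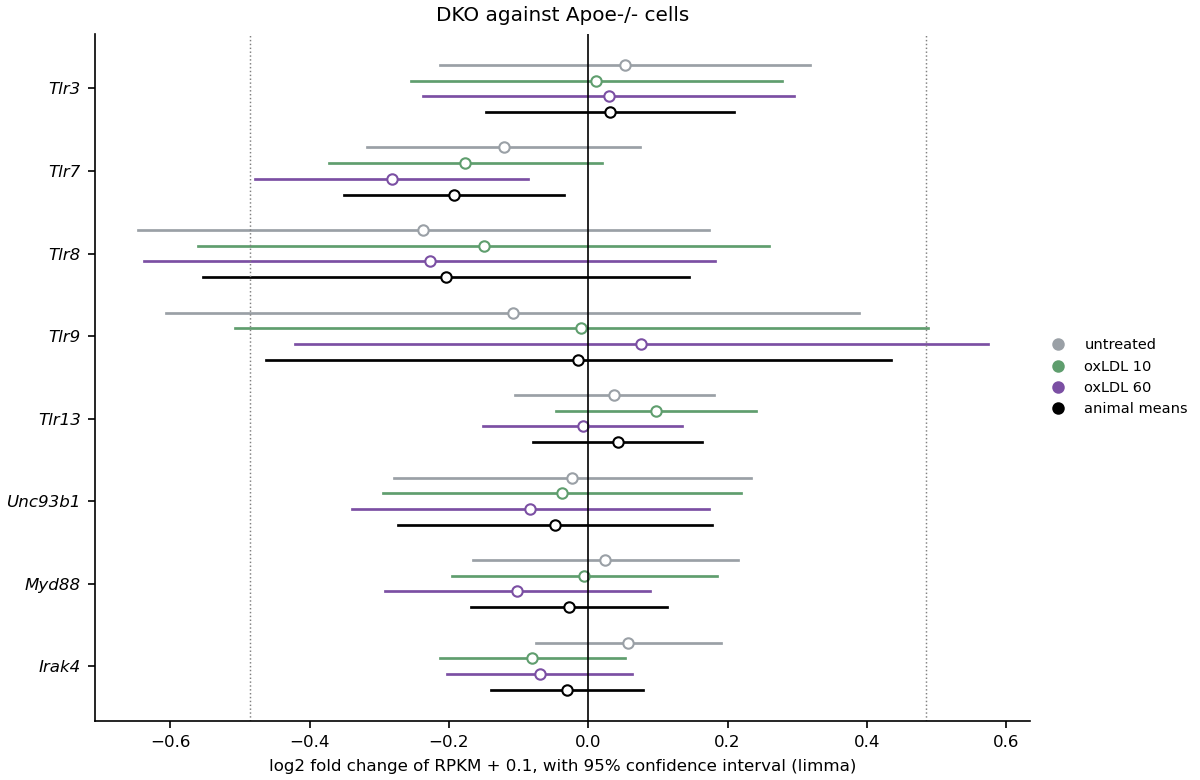
log2 difference of RPKM + 0.1 between DKO and Apoe-/- cells (horizontal axis, DKO minus Apoe-/-) for each gene, with its 95% confidence interval, in untreated cells, with oxLDL 10, with oxLDL 60 and over the means of 3 animals a genotype. All points are open because none passed both limits, and the dotted lines mark a fold change of 1.4. Tlr7 at oxLDL 60 and over animal means is the gene whose interval lies left of 0.

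The response to oxLDL was not shown to differ between genotypes for any of the 8 genes. The interaction was called for 0 of 8 genes at oxLDL 10 and at oxLDL 60 by limma, and 0 of 8 had an unadjusted p under 0.05 at either. Of all genes tested, 0% and 0.0156% were called, and 246 and 1256 were under that unadjusted p. At oxLDL 60 the interaction for Tlr7 was -0.16 (95% interval -0.44 to 0.12) and for Tlr3 it was -0.02 (-0.40 to 0.35). The median interaction of all genes at oxLDL 60 was -0.11, and rescaling by the median ratio moved it to 0.01. After rescaling, the interaction for Tlr7 was -0.04, that for Myd88 0.00 and that for Tlr13 0.08, the last having been -0.05 before.

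The Xist-positive libraries, 1 animal in each genotype, stood apart in Unc93b1 and less regularly in others of these genes. Unc93b1 was highest in that library in all 6 groups, at 156, 157 and 126 RPKM in Apoe-/- cells against at most 142, 124 and 109 RPKM in the others, and at 153, 144 and 117 RPKM in DKO cells against at most 131, 127 and 105 RPKM. Only 2.51% of the genes tested were highest in that library in all 6 groups. Tlr8 was highest there in 5 groups, Tlr7, Tlr9 and Myd88 in 4, Tlr3 and Irak4 in 2, and Tlr13 in 1. Tlr13 was lowest there in 4 groups, Tlr3 in 2 and Irak4 in 1. Groups of the same genotype share that animal, and no share of all genes was computed for counts under 6. Tlr9 in DKO cells was at 2.45, 2.02 and 1.65 RPKM in that animal against at most 1.55, 1.25 and 1.10 RPKM in the others. A term for these libraries in the model was 0.26 ± 0.04 for Unc93b1, 0.36 ± 0.08 for Tlr8, 0.38 ± 0.11 for Tlr9, 0.13 ± 0.05 for Tlr7 and -0.05 ± 0.04 for Tlr13 on the log2 scale (estimate ± SE). That fit took libraries of the same animal as independent though they correlate, so these SE are too small for a difference between animals. With 1 such animal a genotype, sex and animal cannot be told apart, and no p is given. Without the 6 libraries, Tlr7 at oxLDL 60 differed between genotypes by -0.31 (adjusted p = 0.27).

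Genes around the receptors were counted from lists by role, and each count is read against the share of all genes called, which was 13.9% in Apoe-/- and 12.2% in DKO cells with oxLDL 60. With oxLDL 60, trafficking and processing factors had 2 genes higher and 1 lower among 18 tested, in each genotype, which is 16.7% and a little above the share of all genes, with median log2 changes of 0.24 in Apoe-/- and 0.12 in DKO cells. Those higher were Ctsk (cathepsin K; 1.09 ± 0.23 and 0.91 ± 0.23) and Rab7b, a late endosomal GTPase (0.90 ± 0.06 and 0.69 ± 0.06). The gene lower was 5430427O19Rik, which encodes the SLC15A4-binding adaptor TASL (-0.68 ± 0.11, adjusted p = 0.00013, and -0.85 ± 0.11, adjusted p = 1.6e-05). Slc15a4 itself changed by -0.35 ± 0.09 and -0.39 ± 0.09, under the fold limit. The folding chaperones of TLRs, Hsp90b1 and Cnpy3, changed by 0.17 ± 0.07 and 0.25 ± 0.07 in Apoe-/- and by 0.03 ± 0.07 and 0.05 ± 0.07 in DKO cells, all under the fold limit.

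Enzymes that digest nucleic acids in endosomes had 1 gene higher among 7 tested in Apoe-/- cells, Dnase2a at 0.49 ± 0.08 (adjusted p = 0.00022), which sat at the fold limit, and none in DKO cells. The 14.3% of this list in Apoe-/- cells was close to the share of all genes. Between genotypes at oxLDL 60, Rnase4 of this list was lower in DKO cells, at 19.2 ± 2.37 RPKM against 29.0 ± 0.411 RPKM, a log2 difference of -0.60 ± 0.10 (adjusted p = 0.012). Rnase4 was also lower in DKO cells untreated and with oxLDL 10, without overlap of libraries, but did not pass there. Means were 15.79 RPKM against 21.61 RPKM untreated and 18.96 RPKM against 25.35 RPKM with oxLDL 10. Of all genes tested, 19.6% untreated and 12.1% with oxLDL 10 were apart between genotypes in either direction. Lower in DKO cells without overlap were 158 of 12838 genes untreated and 401 with oxLDL 10. The Rnase4 locus overlaps that of Ang on the same strand, so reads may have been shared. No other gene of the 7 lists of this pathway passed between genotypes at any treatment.

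Signalling genes after MyD88 and TRIF had 1 gene higher and 5 lower among 28 tested in each genotype at oxLDL 60. That is 21.4% called, above the share of all genes, while the list medians were -0.05 in Apoe-/- and -0.17 in DKO cells. Irf7, the interferon regulatory factor of endosomal TLRs, fell by 1.48 in Apoe-/- and by 1.37 in DKO cells (adjusted p = 3.8e-07 and 1.0e-06), from 53.8 ± 14.5 to 18.8 ± 0.811 RPKM and from 57.9 ± 6.76 to 22.3 ± 1.81 RPKM. Ikbke, a kinase upstream of interferon regulatory factors, changed by -1.39 ± 0.14 and -1.46 ± 0.14, and Irf5 by -0.66 ± 0.09 and -0.72 ± 0.09. The gene called higher in Apoe-/- cells was Ikbkg (0.91 ± 0.06), which went from 17.6 ± 1.12 to 33.2 ± 0.473 RPKM. In DKO cells Ikbkg went from 21.7 ± 1.09 to 37.2 ± 0.944 RPKM. Nfkb1 was called lower in DKO cells, at -0.87 ± 0.08. Irak1 (0.13 ± 0.07 and -0.01 ± 0.07), Traf6 (0.16 ± 0.08 and 0.13 ± 0.08) and Ticam1, which encodes TRIF (0.33 ± 0.09 and 0.23 ± 0.09), did not pass.

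Inhibitors of TLR signalling had 3 genes higher and 8 lower among 15 in Apoe-/- cells and 2 higher and 7 lower in DKO cells, 73.3% and 60.0% of the list. Siglece, a sialic acid-binding inhibitory receptor, changed by -3.06 ± 0.29 and -2.72 ± 0.29, and Irak3, a pseudokinase that restrains IRAK signalling, by -1.56 ± 0.12 and -1.47 ± 0.12. Cd300a, an inhibitory receptor for lipids of dying cells, rose by 1.56 ± 0.09 and 1.21 ± 0.09. Of 9 surface TLRs and co-receptors 3 (33.3%) were lower in each genotype, against 6.78% and 7.31% of all genes, Tlr2, Cd14 and Tlr1, with Tlr2 going from 166 ± 25.6 to 49.9 ± 4.62 RPKM in Apoe-/- and from 162 ± 2.04 to 48.7 ± 2.52 RPKM in DKO cells.

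Of 10 sensors of cytosolic nucleic acids, 7 were lower in each genotype, with a median change of -1.44 in both. Zbp1, a sensor of Z-form nucleic acid, changed by -2.31 ± 0.16 and -2.11 ± 0.16, and Ddx58, which encodes RIG-I, by -2.02 ± 0.12 and -1.97 ± 0.12. All 10 output genes of TLR signalling that were tested were lower in both genotypes, with medians of -1.75 and -1.88. Cxcl10 changed by -5.39 ± 0.23 and -4.58 ± 0.23, Il1b by -3.81 ± 0.38 and -3.99 ± 0.38, and Ccl5 by -2.80 ± 0.36 and -2.44 ± 0.36. With oxLDL 10 already, 6 of 10 cytosolic sensors were lower in each genotype, and 9 of 10 output genes in Apoe-/- and 7 of 10 in DKO cells, where 2.04% and 1.69% of all genes were lower. Nod2, which is best known as a sensor of bacterial wall fragments and is counted with the cytosolic sensors, was among those lower with oxLDL 10 (-0.90 ± 0.13 and -0.83 ± 0.13).

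**Figure D5:**
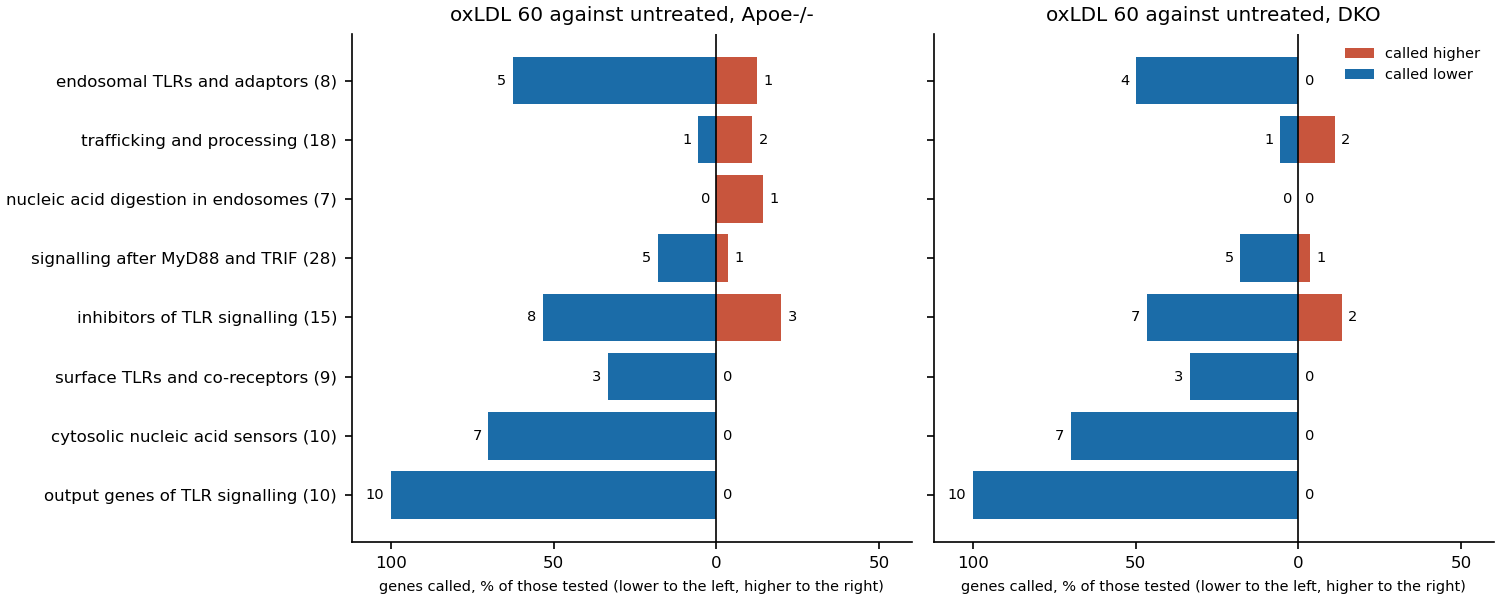
Genes called lower (blue, to the left) and higher (red, to the right) with oxLDL 60, as a percentage of the genes tested in each list (horizontal axis), in Apoe-/- and DKO cells. Numbers beside bars are gene counts and numbers in parentheses are genes tested. All 10 output genes and 7 of 10 cytosolic sensors are lower in both genotypes, against 6.78% and 7.31% of all genes. Of the signalling list 21.4% and of the trafficking list 16.7% are called in either direction, against 13.9% and 12.2% of all genes.

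The genes whose levels ran most like each of the 8 were listed by Pearson r over the 18 libraries among 10102 genes with a mean of at least 1 RPKM. Tlr3 was closest to Etnk1 and Herc6 (both 0.98), Tlr7 to Il2rg (0.97) and Tlr8 (0.96), and Tlr8 to Txnip (0.98), Cysltr1 (0.97) and Il15 (0.97). Tlr13 was closest to Flvcr1 (0.99), Emp1 (0.98) and Nceh1 (0.98), the last an enzyme that hydrolyses cholesteryl esters. Myd88 was closest to Lipe, Daxx and Ikbke (each 0.98). Tlr9 (St18, 0.92) and Irak4 (Plcb3, 0.87) had looser matches, and Unc93b1 was close to Aif1 and Acaa1a (0.96 and 0.95), after 1 row whose symbol had been turned into a date. Among the 8 genes Tlr13 was negative with each of the others, from -0.64 with Unc93b1 to -0.88 with Myd88. The libraries share groups and animals, so these values describe the table and carry no p.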

How the data were processed

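Total RNA was isolated from BMDM and 18 libraries were sequenced. The study's methods give poly(A) selection for its RNA-seq, but beside another sequencer than the labels of these libraries name. The authors aligned reads with STAR to mm10, per the submitters' processing notes, and deposited 1 table of RPKM values for all libraries. The study's methods list STAR, RnaSeqC and Subread (as Subred) in 1 workflow, without saying which made the RPKM values. RPKM are relative to each library, so very abundant RNAs lower all other values. Depth was estimated from the steps of low values: 63.2% of 10270 lay within 0.05 of a whole read, against 10% by chance, so the depths are approximate and cover counting error only. Values were analysed as log2(RPKM + 0.1), genes needed 0.1 RPKM or more in 3 or more libraries to be kept, and 6 group means were fitted with limma 3.58.1 (R 4.3.3; lmFit, eBayes with trend) to all 18 libraries. P-values were adjusted by Benjamini-Hochberg over the 12838 genes. Procedures were tested on simulated data. The adjusted p and fold limits follow the study's methods.

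Within a genotype, deviations of libraries with the same replicate number correlated at 0.18 to 0.69 in all 18 pairs, so numbers were taken to mark an animal. No paired comparison between genotypes was made, since there the median was -0.17. The 8 genes were named in every comparison, with Treml4, 8 core partners and up to 3 called genes with the largest change per list. Genes and lists were chosen with earlier results of these data known. Alternatives were other pseudocounts, filters, scaling, samples, an animal block and an Xist term.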

Additional observations from a re-analysis of the deposited data

How the results depend on the processing

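Of 1600 values of the 8 genes under the alternatives, 1541 kept their side of the limits and, where uncalled, stayed within the spread, 31 lost a call, 18 gained one, 10 uncalled values moved by more than the spread, and no called value changed sign. Among the values that were never called, 98 changed sign, 90 of them between genotypes or in the interactions. With oxLDL 60 the count of genes called stayed at 4 in DKO cells and between 4 and 5 in Apoe-/- cells when 1 library was left out, against 6 with all libraries. Apoe-/- cells also had 4 with a pseudocount of 1 (without Tlr7 and Tlr9), 5 with no filter (without Tlr9) and 5 after rescaling (without Tlr13), and DKO cells 5 after rescaling (with Tlr13) and 6 with no fold limit (with Tlr13 and Irak4). With oxLDL 10, Apoe-/- cells had 1 gene called, and 0 with a pseudocount of 1, with only the groups compared or without the Xist-positive libraries, 2 with no fold limit, and 0 to 1 with 1 library left out. DKO cells had 1, and 0 with a pseudocount of 1 or without the Xist-positive libraries, 2 with no fold limit, and 0 to 1 with 1 library left out. From oxLDL 10 to oxLDL 60, Apoe-/- cells had 2, and 1 with a pseudocount of 1, with no filter, with only the groups compared or without the Xist-positive libraries, 5 with no fold limit, and 1 to 2 with 1 library left out. DKO cells had 1, and 2 with a pseudocount of 0.01 or without the Xist-positive libraries, 4 with no fold limit, and 1 to 2 with 1 library left out. The cause of these changes was not tested. With the animal as a replicate block the counts at oxLDL 60 were 6 and 4, and the block changed no call of the 8 genes. The 0 of 8 between genotypes and for the interactions held under every alternative run.

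Tlr9 had the fewest reads, about 152 in its lowest library. With 3 libraries a group, the intervals of Tlr8 and Tlr9 between genotypes held fold changes of 1.4 at each treatment. Over animal means that of Tlr8 held it (-0.55 to 0.14). That of Tlr9 (-0.46 to 0.43) did not, but did so under 9 of 12 alternatives.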
